A study of Mus musculus with 30 samples.

Results

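Auts2 and its 2 paralogs Fbrsl1 and Fbrs were followed over 30 microarrays of mouse brain tissue, from Tbr1 KO and wild-type (WT) animals. Every probe set was taken whose only gene symbol was one of the 3, which gave 3 of 21579 genes and 13 of the 80658 probe sets in the 2 value tables: 5 for Auts2, 3 for Fbrsl1 and 2 for Fbrs at the embryonic stage E14.5, and 1 for each gene at the newborn stage P0.5. At E14.5 the tissue was neocortex, with 3 KO and 3 WT arrays. At P0.5 it was frontal, parietal or occipital brain tissue, with 4 KO and 4 WT arrays of each region. KO animals were homozygous for a null allele of Tbr1 (Tbr1 -/-), which they carried in every cell of the body. They were bred from heterozygous parents on the CD1 background. WT animals were on the same CD1 background, and no control in the series carries the null allele by its label. Sex and any pooling of tissue are not stated in the labels, nor is a link between arrays of 1 number in different regions, so that p-values measure the spread between these arrays. Values are log2 signals, on which a difference of 1 is a doubling. A probe set was called changed where limma gave it an adjusted p under 0.05 (Benjamini-Hochberg, taken over every single-gene probe set of the comparison).

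The AUTS2 protein family is named for a human gene linked to autism and other neurodevelopmental disorders. In the nucleus AUTS2, and likewise its paralogs FBRSL1 and FBRS (fibrosin), is known as a subunit of variant Polycomb repressive complexes 1 built on PCGF3 or PCGF5, in which AUTS2 recruits casein kinase 2 and the acetyltransferase P300 and is linked to transcription rather than to silencing. In the cytoplasm of mouse cortical neurons AUTS2 is known to act on Rac1 and Cdc42, the GTPases that shape the actin skeleton during migration and neurite growth. Tbr1 is a T-box transcription factor of early-born cortical neurons, foremost those of layer 6 and the subplate. The study is known for asking which regional and laminar genes of the cortex depend on Tbr1.

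The promoter letters are shown for the genes whose windows were held in a RefSeq table of the GRCm38.p6 build, because the T-box family binds a short known motif. Of the 3 genes, 2 had windows, Fbrsl1 (2 windows) and Fbrs (1). The window of Auts2 was not used here. Galnt17, the protein-coding neighbour of Auts2 on chromosome 5 that is described further on, is shown beside them. For Fbrsl1 and Fbrs the 250 bases before the start site are given, with each CG dinucleotide in capitals, at chr5:110448504-110448753 on the minus strand (the window farther upstream) and at chr7:127478708-127478957 on the plus strand. For Galnt17 the stretch runs 15 bases past the start site, at chr5:131307508-131307772 on the minus strand, with GGTGTGA, the shorter form of that motif, in capitals.
Fbrsl1: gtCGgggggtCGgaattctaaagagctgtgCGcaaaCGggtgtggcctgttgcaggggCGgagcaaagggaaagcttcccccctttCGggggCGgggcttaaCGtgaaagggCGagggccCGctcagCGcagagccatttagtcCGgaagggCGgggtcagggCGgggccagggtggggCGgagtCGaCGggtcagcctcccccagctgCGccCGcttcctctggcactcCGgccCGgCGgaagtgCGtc
Fbrs: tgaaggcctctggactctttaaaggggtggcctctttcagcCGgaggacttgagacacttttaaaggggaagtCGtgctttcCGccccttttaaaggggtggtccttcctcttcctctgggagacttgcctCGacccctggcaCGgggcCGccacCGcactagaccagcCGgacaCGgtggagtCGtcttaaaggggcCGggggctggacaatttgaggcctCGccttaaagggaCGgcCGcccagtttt
Galnt17: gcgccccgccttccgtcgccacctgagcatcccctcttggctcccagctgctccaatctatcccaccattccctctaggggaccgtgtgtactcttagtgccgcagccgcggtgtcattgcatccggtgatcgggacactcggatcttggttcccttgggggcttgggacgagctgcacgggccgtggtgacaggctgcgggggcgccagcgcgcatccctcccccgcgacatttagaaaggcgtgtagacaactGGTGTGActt

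Windows ran from 250 bases before the start site to 50 bases after it, and motifs were searched on both strands. The T-box site AGGTGTGA stood in 419 of 32851 windows (1.28%), the shorter form GGTGTGA, which the full site contains, in 1307 (3.98%), and the core GCATGCGC of the factor NRF1, which recruits AUTS2 complexes in other cells, in 891 (2.71%). None of the 3 motifs was found in the 3 windows of Fbrsl1 and Fbrs. The window of Prex1, a gene described further on, was also searched and held none of them. The shorter form in the Galnt17 window lay on the gene's own strand, with 5 transcribed bases before it. The Fbrsl1 and Fbrs windows shown held 26 and 19 CG dinucleotides in their 300 bases, against a median of 7 over all windows. A match is a description of the letters, and the letters of a window without one say nothing of the factor.

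At P0.5 Auts2 was the one member that changed, and it fell in KO frontal tissue. Its signal there was 9.60, 9.44, 9.62 and 9.53 on the 4 KO arrays, against 10.22, 10.19, 10.11 and 9.88 on the 4 WT arrays. All 4 KO arrays lay below all 4 WT arrays (12.9% of all probe sets did not overlap there). The lowest WT array, replicate 4, stood apart from the other 3 WT arrays. The KO mean was 9.55 ± 0.08 and the WT mean 10.10 ± 0.16 (SD, 4 arrays each), a log2 difference of -0.55 (SE 0.10, 95% interval -0.75 to -0.35), which is a signal 31.8% lower in KO or a 1.47-fold difference (limma, adjusted p = 5.05e-04). By p the probe set ranked 257 among 21789, of which 7.29% were called in this comparison and 2.74% were called lower.

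In parietal tissue the Auts2 signal was 9.33, 9.82, 9.78 and 9.71 on the KO arrays, against 9.75, 9.82, 9.98 and 9.77 on the WT arrays. The groups overlapped, and the lowest KO array, replicate 1, lay well under the other 3. The difference of -0.17 (SE 0.10, 95% interval -0.37 to 0.03) was not called (limma, adjusted p = 0.666, 2.05% of probe sets called), and without KO replicate 1 it was -0.06. In occipital tissue the signal was 9.99, 9.71, 9.80 and 9.59 on the KO arrays, against 9.89, 9.87, 9.88 and 10.01 on the WT arrays. Here the 4 KO arrays spread on both sides of the narrow WT group, and the difference of -0.14 (95% interval -0.34 to 0.06) was not called (limma, adjusted p = 0.643, 1.34% of probe sets called). It was -0.21 without KO replicate 1 and -0.08 without KO replicate 4.

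With same-numbered arrays of the 3 regions averaged first, Auts2 stood at 9.66 ± 0.05 for KO and 9.95 ± 0.05 for WT (SD, 4 averaged values each), with no overlap (12.6% of all probe sets did not overlap there). The log2 difference was -0.29 (SE 0.04, 95% interval -0.38 to -0.19, 18.1% lower in KO), and it was called (limma, adjusted p = 9.42e-04), in a comparison in which 7.41% of probe sets were called and 2.88% were called lower. Taken instead as the mean of the 3 regional differences in the fit of 24 arrays, it had an SE of 0.06 and an adjusted p of 8.33e-04 in limma.

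**Figure D1:**
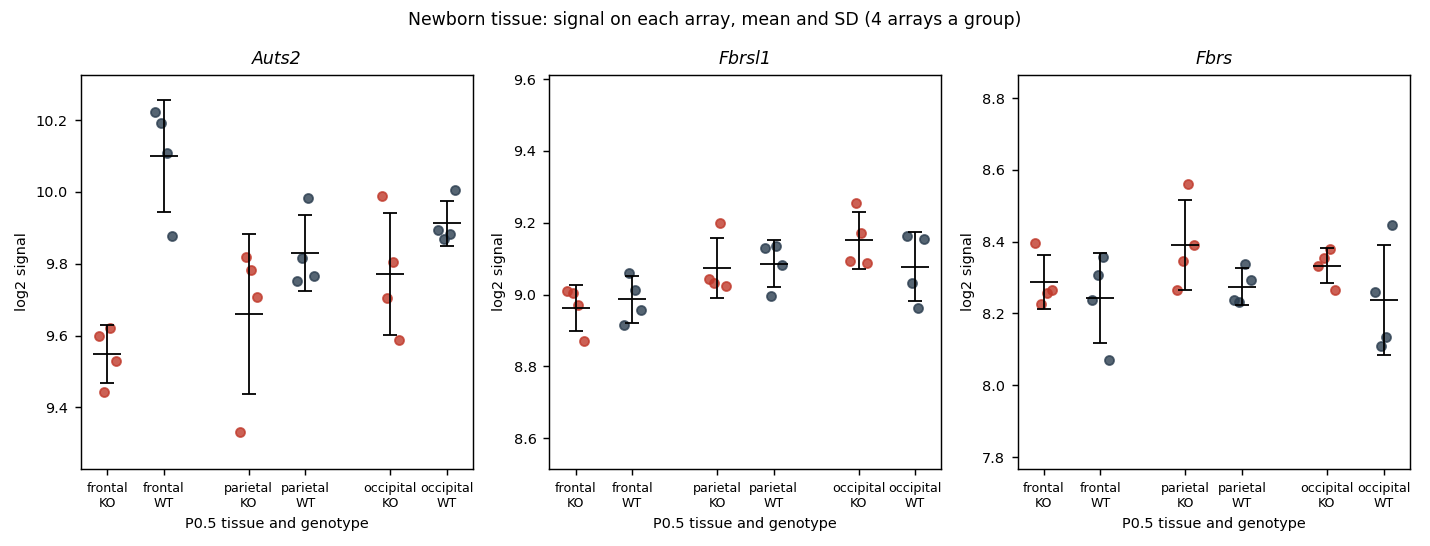
Log2 signal of Auts2, Fbrsl1 and Fbrs (1 panel each, all 3 vertical axes spanning the same log2 distance) on each P0.5 array, by region with KO left of WT. Points are arrays, the horizontal mark is the group mean and the bar is the SD of 4 arrays. In frontal tissue the Auts2 arrays of KO lie between 9.44 and 9.62 and those of WT between 9.88 and 10.22, while in every other pair of groups KO and WT overlap. Over all probe sets 12.9% did not overlap in frontal tissue.

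The targeted gene, Tbr1, kept a signal in KO tissue, on a probe set whose position relative to the deleted part of the gene is not given in the sources used here. It was lower in KO than in WT in frontal (-0.63, limma adjusted p = 0.00207), parietal (-0.58, adjusted p = 0.00883) and occipital tissue (-0.84, adjusted p = 2.36e-04). On all 4 KO arrays of each region it lay below all WT arrays. Of all probe sets 12.9%, 7.64% and 6.36% did not overlap in these regions. The labelled tissue was checked on cortical projection neuron markers, of which 6 of 8 were measured at each stage, and all 6 lay above the median of all probe sets in every group. Tbr1 itself is on this list.

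Sex-linked RNA differed between the groups compared. In frontal tissue Xist, the RNA of the inactive X chromosome, lay between 11.96 and 12.20 on the 4 KO arrays, against 5.65 to 6.39 on the 4 WT arrays, and the mean of 3 Y-linked genes averaged 5.39 in KO and 9.04 in WT. Xist was over 11 on 4 of 4 KO arrays and on 0 of 4 WT arrays, so that within frontal tissue genotype and the sex-linked level cannot be told apart. In parietal tissue it was over 11 on 2 KO arrays and on 1 WT array, and in occipital tissue on 1 KO array and on 0 WT arrays. Some arrays lay between these levels. Their Xist was 8.55 and 7.88 in parietal KO, 8.65 in parietal WT, and 7.75 and 8.77 in occipital KO tissue. The Y-linked means of these arrays were high as well, at 9.02 to 9.18. Parietal WT replicate 2, whose Xist was 12.14, had an Auts2 signal of 9.82, beside 9.75, 9.98 and 9.77 on the other WT arrays. Without that array the parietal difference in Auts2 was -0.17. Same-numbered arrays did not share these levels: Xist on replicate 1 of KO was 12.20 in frontal, 8.55 in parietal and 5.43 in occipital tissue.

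With the Y-linked mean of each array as a covariate in the fit of 24 arrays, where its slope is set by the other regions, the frontal difference in Auts2 was -0.64 (SE 0.13, limma adjusted p = 0.00840). With the Xist level instead, an alternative chosen after seeing the data, it was -0.59 (SE 0.14, limma adjusted p = 0.0382). Over the regions the size was kept but the call was not: the difference was -0.32 with the Y-linked mean (limma adjusted p = 0.385) and -0.34 with Xist (limma adjusted p = 0.183). With these covariates limma called 287 and 264 probe sets in frontal tissue, against 1588 without. The plot of Auts2 beside Xist shows the 24 arrays.

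**Figure D2:**
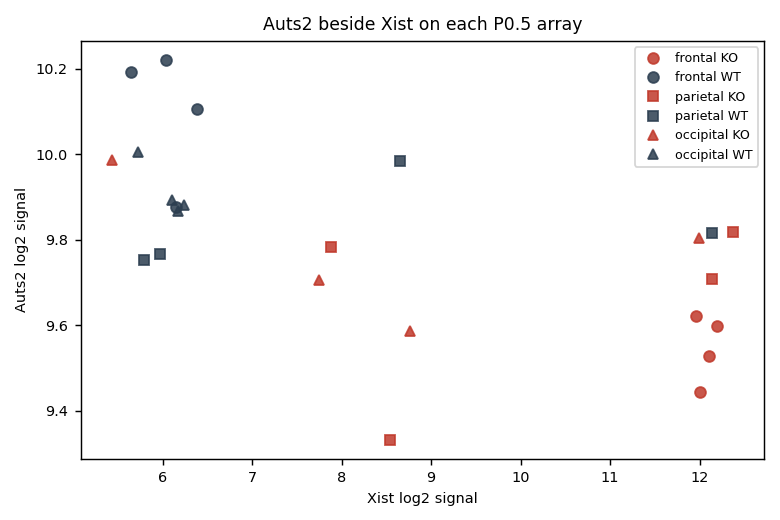
Auts2 log2 signal (vertical axis) against Xist log2 signal (horizontal axis) on each P0.5 array. Shapes give the region and colours the genotype, with KO red and WT dark. The 4 frontal KO arrays stand together at Xist signals from 11.96 to 12.20 and the 4 frontal WT arrays at 5.65 to 6.39, and arrays of the other regions stand on both sides and between.

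Cell type markers moved with genotype in frontal tissue as well. Layer 6 markers fell in 3 of 4 cases, with summed levels, as means over the list, between 8.46 and 8.76 on the KO arrays and between 9.26 and 9.69 on the WT arrays. Subplate markers fell in 2 of 3 cases (7.27 to 7.37 in KO, 7.78 to 8.03 in WT), and 4 of 4 astrocyte markers rose (7.96 to 8.88 in KO, 7.66 to 8.10 in WT), as did 2 of 3 microglia markers (7.70 to 8.30 in KO, 6.96 to 7.93 in WT). Of 6 measured markers of cortical projection neurons in general 2 fell, and 1 of these was Tbr1 itself, the targeted gene. The means of this list, Tbr1 included, lay between 10.30 and 10.50 in KO and between 10.48 and 10.68 in WT. Of the other lists measured, 1 of 4 striatum, 1 of 4 hippocampus, 1 of 4 upper layer and 1 of 2 vessel markers fell in frontal tissue and 1 of 4 thalamus markers rose. Over the regions 4 of 4 layer 6 markers fell (8.57 to 8.76 in KO, 9.19 to 9.45 in WT) and 3 of 3 subplate markers fell (7.33 to 7.41 in KO, 7.67 to 7.80 in WT). There 4 of 4 astrocyte, 4 of 4 radial glia and 3 of 3 microglia markers rose. Other cell type lists were mixed over the regions. Of 6 projection neuron markers 1 rose and 2 fell, Tbr1 being 1 of those that fell, and of 4 striatum markers 1 rose and 1 fell. In addition 1 of 4 interneuron and 1 of 4 thalamus markers rose, and 1 of 4 upper layer and 1 of 2 vessel markers fell. In parietal and occipital tissue, where Auts2 was not called, 3 of 4 and 2 of 4 layer 6 markers fell. Subplate markers fell there in 1 of 3 and 0 of 3 cases. Of 4 astrocyte markers 0 and 1 rose, and of 3 microglia markers 0 rose in either region. In parietal tissue 1 of 4 radial glia markers rose and 1 of 4 upper layer markers fell. Of 6 projection neuron markers 1 and 2 fell, Tbr1 among them in both regions, and 1 of 4 striatum markers fell in each. Of all genes 7.28% were called in either direction in frontal tissue, 7.27% over the regions, 1.9% in parietal and 1.32% in occipital tissue. Fewer cells of a type and less RNA per cell cannot be told apart in such tissue, and the part of these markers in the Auts2 result was not tested.

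The regional order of Auts2 differed between the genotypes in its values. Among KO groups the mean was lowest in frontal tissue (9.55), then parietal (9.66 ± 0.22), then occipital (9.77 ± 0.17). Among WT groups frontal tissue was highest (10.10), then occipital (9.91 ± 0.06), then parietal (9.83 ± 0.11, SD, n = 4 each). In the order of all 6 groups the 3 WT means lay above the 3 KO means. Of the 5 steps between neighbours, 4 were among the comparisons tested and none of these was called. The step between the parietal WT and occipital KO groups was not tested. The step between the frontal and occipital WT groups, 0.19, was wider than the pooled SD of that pair (0.12), and the other 4 steps, between 0.06 and 0.11, were narrower than theirs.

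None of the regional differences in Auts2 passed the test. Frontal minus occipital was -0.22 within KO (95% interval -0.42 to -0.02, unadjusted p = 0.0294, limma adjusted p = 0.262, 3.42% of probe sets called) and 0.19 within WT (95% interval -0.01 to 0.39, limma adjusted p = 0.215, 5.74% called). Frontal minus parietal was -0.11 within KO (limma adjusted p = 0.861, 0.275% called) and 0.27 within WT (95% interval 0.07 to 0.47, unadjusted p = 0.00995, limma adjusted p = 0.316, 0.174% called). Parietal minus occipital was -0.11 within KO (limma adjusted p = 0.872, 0.307% called) and -0.08 within WT (limma adjusted p = 0.927, 0.592% called). Single KO arrays moved the KO values: parietal minus occipital was -0.00093 without parietal replicate 1, -0.04 without occipital replicate 1 and -0.17 without occipital replicate 4. Frontal minus parietal within KO was -0.22 without parietal replicate 1, -0.06 without parietal replicate 2 and -0.07 without parietal replicate 3. Within WT, parietal minus occipital was -0.13 without parietal replicate 3 and -0.05 without occipital replicate 4.

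Whether the regional difference itself differed between the genotypes was tested as an interaction. The frontal minus occipital difference of Auts2 was smaller in KO than in WT by 0.41 (log2 -0.41, SE 0.14, 95% interval -0.69 to -0.13, unadjusted p = 0.00603), which was not called over all probe sets (limma adjusted p = 0.159, 0.344% called). It passed when the arrays were quantile normalized again (-0.52, limma adjusted p = 0.0381) and with array weights (-0.46, limma adjusted p = 0.0439). The frontal minus parietal interaction was -0.38 (SE 0.14, unadjusted p = 0.00973, limma adjusted p = 0.546, 0.00918% called) and the parietal minus occipital one -0.03 (limma adjusted p = 0.999, 0.00918% called). The fall of Auts2 in frontal tissue is therefore not shown to be particular to that region. The frontal difference enters both of the first 2 interactions.

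**Figure D3:**
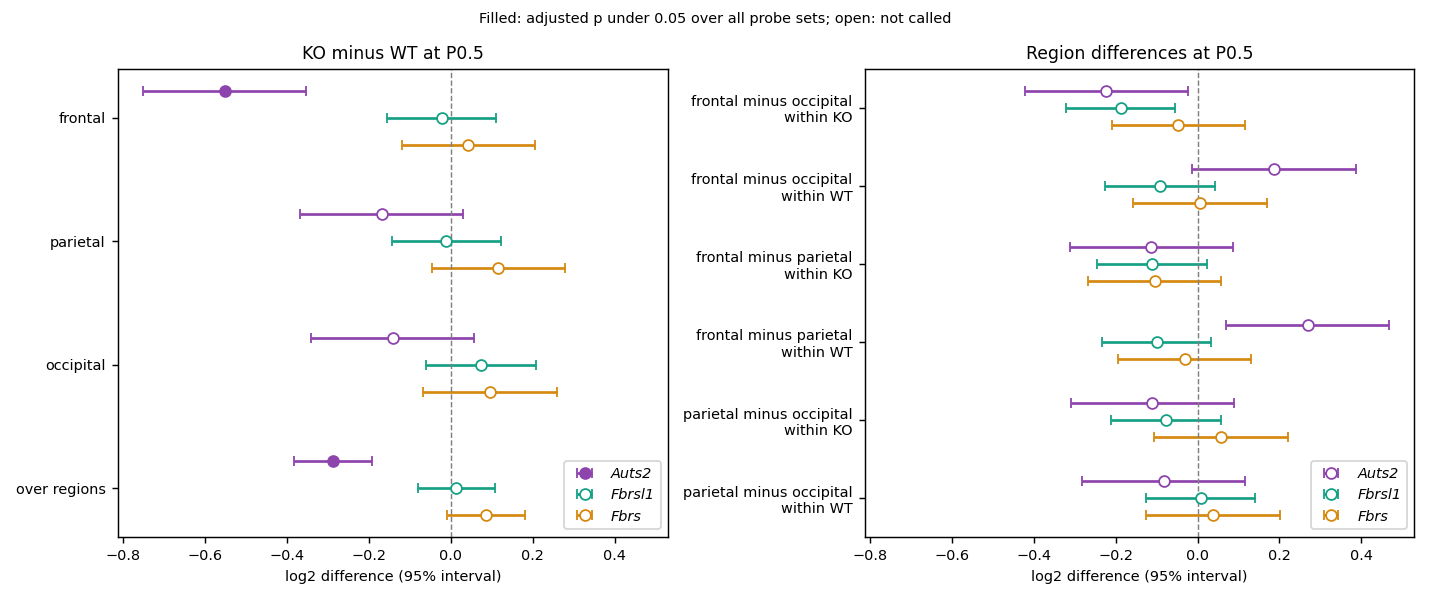
Log2 differences at P0.5 for Auts2, Fbrsl1 and Fbrs with their 95% intervals (horizontal axis), KO minus WT on the left and between regions within each genotype on the right, KO above WT. Filled points were called at an adjusted p under 0.05 over all probe sets. Both filled points are Auts2, at -0.55 in frontal tissue and at -0.29 over the regions.

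Fbrsl1, the paralog on the same chromosome, gave no call. In frontal tissue its signal was 9.01, 9.00, 8.97 and 8.87 on the KO arrays, against 8.91, 9.06, 9.01 and 8.96 on the WT arrays. In parietal tissue it was 9.04, 9.03, 9.20 and 9.02 on the KO arrays, against 9.13, 8.99, 9.14 and 9.08 on the WT arrays. In occipital tissue it was 9.09, 9.25, 9.17 and 9.09 on the KO arrays, against 9.16, 9.03, 8.96 and 9.15 on the WT arrays. KO and WT overlapped in each region, and the 24 arrays spanned 0.38, against 0.89 for Auts2.

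None of the KO minus WT differences in Fbrsl1 was called: -0.02 in frontal (95% interval -0.16 to 0.11), -0.01 in parietal (-0.14 to 0.12), 0.07 in occipital tissue (-0.06 to 0.21) and 0.01 over the regions (-0.08 to 0.11). The adjusted p from limma ran from 0.734 to 0.995. Its frontal mean was the lowest of the 3 regions in both genotypes. Within KO the frontal arrays lay below all occipital arrays (10.3% of all probe sets did not overlap there), with means of 8.96 ± 0.06 and 9.15 ± 0.08 (SD, n = 4 each), a difference of -0.19 (SE 0.06, 95% interval -0.32 to -0.05, unadjusted p = 0.00761) that was not called (limma adjusted p = 0.125), and that passed with array weights (-0.20, limma adjusted p = 0.0311). The frontal KO arrays also lay below the parietal ones (5.53% of all probe sets did not overlap there), by 0.11 on average (log2 -0.11, limma adjusted p = 0.717). Within WT frontal minus occipital was -0.09 (limma adjusted p = 0.354) and frontal minus parietal -0.10 (limma adjusted p = 0.483). The 3 interactions were -0.10, -0.01 and -0.08, with none called.

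Fbrs, on chromosome 7, was at 8.40, 8.23, 8.26 and 8.26 on the frontal KO arrays, against 8.24, 8.31, 8.36 and 8.07 on the frontal WT arrays. In parietal tissue it was at 8.26, 8.35, 8.56 and 8.39 on the KO arrays, against 8.24, 8.23, 8.34 and 8.29 on the WT arrays. In occipital tissue it was at 8.33, 8.35, 8.38 and 8.27 on the KO arrays, against 8.26, 8.11, 8.13 and 8.45 on the WT arrays. The KO means lay above the WT means in all 3 regions, with overlapping arrays in each.

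The differences in Fbrs were 0.04 in frontal (95% interval -0.12 to 0.21), 0.12 in parietal (-0.05 to 0.28) and 0.10 in occipital tissue (-0.07 to 0.26), with adjusted p from limma between 0.714 and 0.791. Over the regions the 4 averaged KO values (8.34 ± 0.04) lay above the 4 averaged WT values (8.25 ± 0.03, SD, n = 4 each). Of all probe sets 12.6% did not overlap in that comparison. The difference of 0.08 (SE 0.04, 95% interval -0.01 to 0.18) was not called (unadjusted p = 0.0772, limma adjusted p = 0.329). The 4 averages follow the replicate numbers, which the Xist levels do not tie to 1 animal. As the mean of the 3 regional differences over 24 arrays it had an SE of 0.05 and an adjusted p of 0.304 in limma. All 3 KO means stood above the 3 WT means in the order of the groups, but no step between neighbours reached the pooled SD of its pair. Between regions the differences ran from -0.10 to 0.06 within KO and from -0.03 to 0.04 within WT, with none called. In sum, 1 of the 3 P0.5 probe sets was called in frontal tissue and 1 over the regions, Auts2 in both cases, and 0 of 3 in each of the other 11 P0.5 comparisons. At an unadjusted p under 0.05, limma passed 5 member values among these 11: Auts2 for frontal minus parietal within WT, for frontal minus occipital within KO and in 2 interactions, and Fbrsl1 for frontal minus occipital within KO.

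At E14.5 none of the 10 probe sets was called, nor was any of the 34958 probe sets tested (0% called). In limma 2208 of these had an unadjusted p under 0.05, and the smallest adjusted p was 0.787. With array weights limma called 3, and leaving out KO replicate 3 it called 40. Tbr1 itself stood at 8.69, 7.23 and 7.57 in KO neocortex, against 9.36, 8.89 and 9.11 in WT neocortex (limma, difference -1.29, adjusted p = 0.787), with KO replicate 1 closest to WT. The E14.5 probe set names are of another array type than the P0.5 ones, and levels were not compared between the stages or between probe sets.

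The 5 Auts2 probe sets did not move alike at E14.5. Probe set 1443062_at read 5.46, 5.80 and 6.23 in KO, against 6.72, 6.31 and 6.57 in WT, and its groups did not overlap, which held for 4135 of all 34958 probe sets (11.8%). Its difference of -0.70 (SE 0.23, 95% interval -1.23 to -0.17, unadjusted p = 0.0160, limma adjusted p = 0.787) was not called. Probe set 1452379_at read 8.66, 8.21 and 8.44 in KO, against 9.01, 8.58 and 8.76 in WT, with overlapping groups and a difference of -0.35 (95% interval -0.81 to 0.11, limma adjusted p = 0.839).

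The other 3 had differences near 0. The brightest, 1457139_at, read 10.65, 10.30 and 10.83 in KO, against 10.88, 10.43 and 10.61 in WT (limma, -0.05, 95% interval -0.49 to 0.39, adjusted p = 0.978). Probe set 1438680_at read 9.69, 9.41 and 9.68 in KO, against 9.90, 9.52 and 9.73 in WT (limma, -0.12, adjusted p = 0.947). Probe set 1427293_a_at read 9.06, 8.55 and 8.78 in KO, against 8.96, 8.49 and 8.69 in WT (limma, 0.09, adjusted p = 0.964). Which part of the transcript each of the 5 reads is not given in the sources used here.

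Replicate 2 gave the lowest WT value in 5 of 5 Auts2 probe sets and the lowest KO value in 4 of 5. Replicate 1 of WT gave the highest WT value in all 5. Xist was uneven among these arrays, at 9.58, 10.17 and 5.07 on KO replicates 1 to 3 and at 5.01, 10.76 and 5.41 on WT replicates 1 to 3. Without KO replicate 3 the difference in 1443062_at was -0.90 (limma adjusted p = 0.343) and without KO replicate 1 it was -0.52 (limma adjusted p = 0.637). Thalamus markers averaged 8.03 on KO replicate 3, beside 6.55 and 6.39 on the other KO arrays and 6.09, 6.24 and 6.14 on the WT arrays, and interneuron markers averaged 7.28, 5.27 and 7.57 in KO and 6.89, 6.69 and 8.08 in WT. The means of several lists separated the genotypes, where of all single probe sets 11.8% did not overlap. Those of cortical projection neuron markers, a list that includes Tbr1 itself, lay at 8.78 to 9.58 in KO and 9.64 to 10.25 in WT. Subplate markers lay at 5.96 to 6.47 in KO and 5.53 to 5.70 in WT. Of the 3 subplate genes 2 in KO and 1 in WT lay above the median of all probe sets. Thalamus markers lay apart too, at 6.39 to 8.03 in KO and 6.09 to 6.24 in WT. Olfactory bulb markers lay narrowly apart, at 6.71 to 6.77 in KO and 6.78 to 6.82 in WT. With limma 0 of these markers were called. The part of these markers in the probe set values was not tested.

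**Figure D4:**
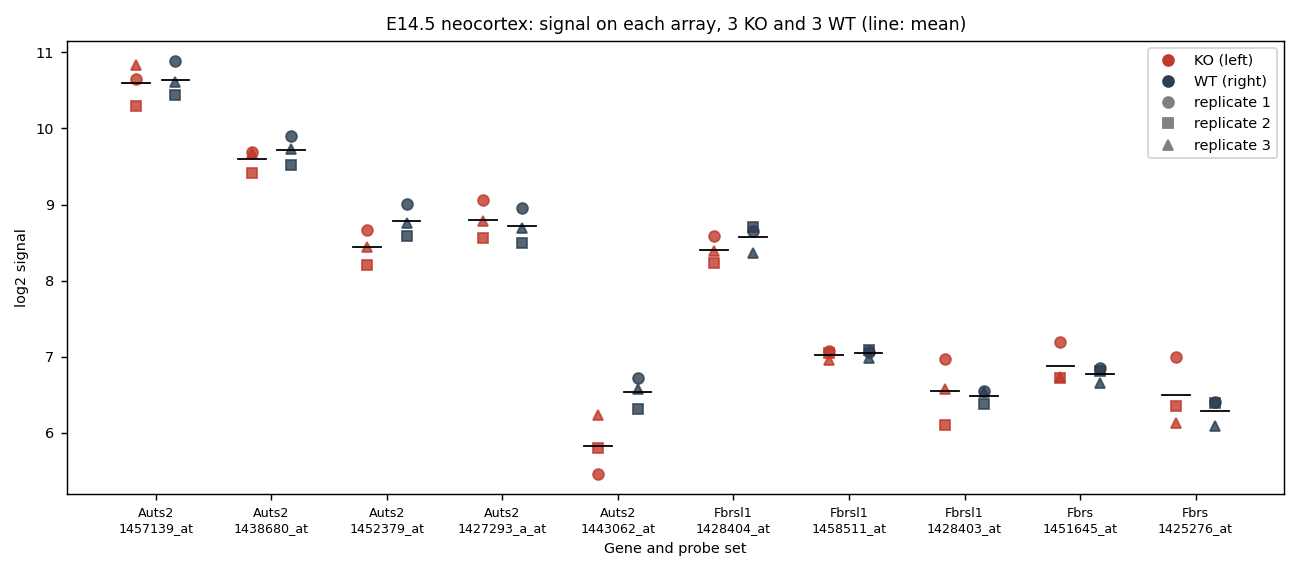
Log2 signal (vertical axis) of the 10 E14.5 probe sets of Auts2, Fbrsl1 and Fbrs on each array, KO left of WT, with the group mean as a line and the replicate number as the shape. Signals of different probe sets are not comparable. KO and WT arrays overlap in 9 of the 10 probe sets, and 1443062_at is the one in which all 3 KO arrays, at 5.46 to 6.23, lie below all 3 WT arrays, at 6.31 to 6.72. Over all E14.5 probe sets 11.8% did not overlap.

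The 3 Fbrsl1 and 2 Fbrs probe sets overlapped between the genotypes at E14.5. For Fbrsl1, 1428404_at read 8.58, 8.23 and 8.39 in KO, against 8.65, 8.70 and 8.36 in WT (limma, -0.17, 95% interval -0.60 to 0.26, adjusted p = 0.938). Probe set 1428403_at read 6.96, 6.09 and 6.58 in KO, against 6.55, 6.37 and 6.54 in WT (limma, 0.06, adjusted p = 0.977), and its KO arrays spread over a wider range than its WT arrays. Probe set 1458511_at read 7.08, 7.04 and 6.95 in KO, against 7.07, 7.09 and 6.99 in WT (limma, -0.02, adjusted p = 0.988).

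For Fbrs, 1425276_at read 7.00, 6.35 and 6.13 in KO, against 6.40, 6.39 and 6.08 in WT (limma, 0.20, 95% interval -0.38 to 0.78, adjusted p = 0.942). Probe set 1451645_at read 7.19, 6.72 and 6.73 in KO, against 6.84, 6.81 and 6.65 in WT (limma, 0.11, 95% interval -0.33 to 0.56, adjusted p = 0.955). In both, KO replicate 1 was the highest of the 6 arrays, and without it the differences were -0.05 and -0.04.

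The genes whose products work with AUTS2 were counted on 1 probe set each. Of 12 partners in the PCGF3 and PCGF5 complexes, 11 were measured at P0.5 and 10 at E14.5, and 0 were called in any of the 14 comparisons. In frontal tissue, where 7.28% of genes were called, their median difference was 0.08, beside -0.03 over all genes. The smallest p there belonged to Csnk2a2, a catalytic subunit of casein kinase 2 (limma, 0.20, unadjusted p = 0.00761, adjusted p = 0.0738), followed by the ubiquitin ligase gene Ring1 (0.12), the scaffold gene Dcaf7 (0.09) and Rybp (0.18). At E14.5 the largest absolute difference in this list was that of Pcgf3 (limma, -0.49, adjusted p = 0.887).

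Of the 4 other PCGF genes, which mark the remaining Polycomb 1 variants, 0 were called in any comparison. Pcgf1 differed by 0.48 in frontal tissue (limma, adjusted p = 0.0786), and Pcgf6 by -0.69 and Bmi1 by -0.76 at E14.5 (limma, adjusted p = 0.787 and 0.824). Among 6 genes of the Rac and Cdc42 pathway of cytoplasmic AUTS2, Prex1, which encodes an exchange factor that activates Rac1, was called lower in frontal and parietal tissue and over the regions, where 7.28%, 1.9% and 7.27% of all genes were called in either direction, and the other 5 (Rac1, Cdc42, Elmo2, Dock1 and Itsn1) were not called in any comparison. The next smallest p in frontal tissue was that of Itsn1 (limma, -0.17, adjusted p = 0.154).

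Prex1 read 8.30, 8.23, 8.45 and 8.38 on the frontal KO arrays, against 8.77, 8.72, 8.91 and 8.49 on the frontal WT arrays, with no overlap, as in 12.9% of all probe sets (limma, -0.38, SE 0.10, adjusted p = 0.0221). In parietal tissue it read 8.31, 8.19, 8.72 and 8.48 in KO, against 9.01, 8.65, 8.82 and 8.80 in WT, with KO replicate 3 inside the WT range (limma, -0.40, SE 0.10, adjusted p = 0.0392). In occipital tissue it read 8.73, 8.57, 8.51 and 8.60 in KO, against 8.51, 8.62, 8.81 and 8.62 in WT (limma, -0.04, adjusted p = 0.921). The difference over the regions was -0.27 (limma adjusted p = 0.0132), and at E14.5 it was -0.61 (unadjusted p = 0.0513, limma adjusted p = 0.787).

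The regional Prex1 calls lay close to the threshold. With the Y-linked mean as a covariate the differences were -0.19 in frontal tissue (limma adjusted p = 0.687) and -0.34 in parietal tissue (limma adjusted p = 0.0975), and with Xist they were -0.14 (limma adjusted p = 0.808) and -0.31 (limma adjusted p = 0.162). The frontal call was lost without KO replicate 1 (limma adjusted p = 0.0693), KO replicate 4 (0.0507) or WT replicate 3 (0.0898), with differences of -0.37, -0.40 and -0.32, close to the -0.38 of all arrays. The parietal call was lost without any 1 of KO replicates 1, 2 and 4 and WT replicates 1, 3 and 4 (limma adjusted p from 0.0740 to 0.167), with differences between -0.41 and -0.32. Over the regions the call was kept with each number left out. With only the arrays of each region fitted, the limma adjusted p was 0.0534 in frontal and 0.126 in parietal tissue.

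The genes most like Auts2 were those with the highest Pearson r over the 24 P0.5 arrays, among 19937 genes. These correlations share arrays, genotype and region and describe these arrays. The 5 highest were Eif1b, of a translation initiation factor family (0.841), Kitl, which encodes the ligand of the KIT receptor (0.826), Galnt17, of a family of enzymes that begin O-linked glycosylation (0.824), the FGF receptor gene Fgfr2 (0.816) and the phospholipase C gene Plch1 (0.811). Kitl averaged 7.60 in KO and 9.30 in WT frontal tissue. Its parietal means were 7.17 in KO and 8.48 in WT, and its occipital means 8.43 in KO and 8.63 in WT. The 5 lowest were Fst, which encodes the activin antagonist follistatin (-0.777), the lipid transfer gene Stard5 (-0.760), Rbms1 of an RNA-binding protein family (-0.759), Fam135b (-0.745) and Kcnh2, a potassium channel gene (-0.735). By Spearman's rho 2 of the 5 highest and 2 of the 5 lowest kept such a place. The paralogs were not alike to Auts2 on this measure, with r of 0.072 for Fbrsl1 and 0.043 for Fbrs, and Tbr1 had 0.545.

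After the mean of each group was subtracted, so that the spread among arrays of 1 group was left, the highest were Fkbp15 (0.856), Abitram (0.853), Uggt1 (0.839), Thap12 (0.823) and Mfap3 (0.821), and the lowest Serpine3 (-0.835), Mroh3 (-0.834), 9530003J23Rik (-0.830), Ckm (-0.825) and Wdr72 (-0.818). None of these 10 was among the 10 named before. Of those named before, Galnt17 stood at 0.768 on this measure, and Eif1b, Kitl, Fgfr2 and Plch1 at 0.625 to 0.661. Stard5 stood at -0.688, and Fst, Rbms1, Fam135b and Kcnh2 between -0.154 and -0.057. On this measure Fbrs stood at 0.599 and Fbrsl1 at 0.163.

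Galnt17 was singled out, after its values were seen, because it is the next protein-coding gene to Auts2 on one side along chromosome 5 in the reference annotation. It read 8.21, 8.02, 8.23 and 8.05 on the frontal KO arrays, against 8.56, 8.60, 8.59 and 8.22 on the frontal WT arrays, of which replicate 4 lay inside the KO range. In parietal tissue it read 7.93, 8.09, 8.19 and 8.13 in KO, against 8.42, 8.20, 8.53 and 8.32 in WT, with no overlap, as in 7.64% of all probe sets. In occipital tissue it read 8.83, 8.14, 8.21 and 7.87 in KO, against 8.34, 8.25, 8.39 and 8.36 in WT, with KO replicate 1 above all others. Single arrays stood out in the same places as in Auts2: WT frontal replicate 4 was the lowest of its group, and KO occipital replicate 1 the highest and replicate 4 the lowest, in both genes. Marker means also stood high on KO occipital replicate 1, with 9.55 for hippocampus (8.90 to 9.00 on the other KO arrays), 8.43 for striatum (7.92 to 8.12) and 9.64 for interneurons (9.09 to 9.35), and their part in these values was not tested.

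The frontal difference in Galnt17 was -0.36 (SE 0.13, limma adjusted p = 0.0842) and was not called. The difference over the regions was -0.24 (SE 0.07, limma adjusted p = 0.0470) and was called, with 6 of the 8 fits that left out 1 number in 1 genotype ending the call, namely those without KO replicate 2, 3 or 4 or WT replicate 1, 2 or 3 (limma adjusted p up to 0.160), while the difference stayed between -0.26 and -0.20 in these fits. The call also ended with all probe sets kept, with array medians subtracted and with no intensity trend (limma adjusted p from 0.0547 to 0.116). With the Y-linked mean as a covariate it was 0.0038 and with Xist -0.04. The neighbour on the other side, Castor2, had an r of -0.009 with Auts2, and the next genes outward, A330070K13Rik beyond Galnt17 and Rcc1l beyond Castor2, had 0.228 and -0.413. Among measured neighbours of the paralogs, each with r taken against its own neighbour, Fbrsl1 had 0.559 with P2rx2, 0.204 with Lrcol1, 0.272 with Galnt9 and -0.358 with Noc4l, and Fbrs had 0.574 with Srcap, 0.260 with Prr14 and 0.231 with Zfp689.

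**Figure D5:**
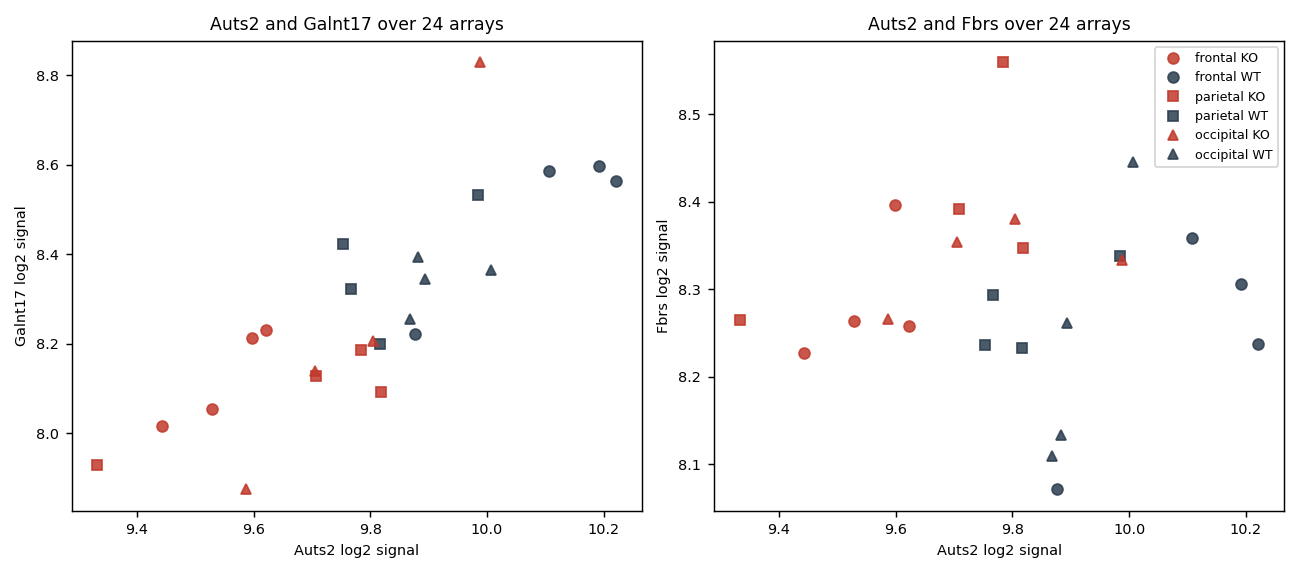
Galnt17 (left) and Fbrs (right) log2 signal on the vertical axes against Auts2 log2 signal on the horizontal axes, over the 24 P0.5 arrays, with regions as shapes and KO in red, WT dark. Galnt17 follows Auts2 along the whole range (r 0.824), while Fbrs shows no slope over the 24 arrays (r 0.043).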

How the data were processed

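RNA was measured on 30 Affymetrix arrays. The deposited values are log2 signals per probe set, made with Affymetrix Expression Console 1.1 and RMA per the submitters' processing notes, with no role or order given. They were used as deposited. The E14.5 and P0.5 tables held 45101 and 35557 probe sets, of which 34958 and 21789 named 1 gene and were tested. 932 and 1621 named several genes and 9211 and 12147 none, per the platform annotation. The label protocol names 1 gene array type for all samples, but the E14.5 names are of an older type, so stages were fitted apart. Array medians lay from 5.12 to 5.15 and from 7.42 to 7.52. No arrays were identical. Array signals carry no read depth. Precision is limited by the number of arrays.

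Groups came from the sample titles, and all data columns were assigned. Differences were fitted two-sided with limma 3.58.1 in R 4.3.3 (lmFit, eBayes with an intensity trend), with Benjamini-Hochberg adjustment over all tested probe sets of each of 14 comparisons. Regional comparisons and interactions came from 1 fit of 24 arrays in 6 groups. Over regions, the 3 same-numbered arrays were averaged first. For counts and likeness a gene was represented by its probe set with the highest mean. The steps were tested on simulated data.

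Named were all member probe sets, Tbr1, the called partners and up to 4 with the smallest p, and 5 genes each way by likeness. The members, lists and alternatives were chosen with earlier results of these data known. Alternatives were the probe sets kept, scaling, trend, array weights, sex-linked covariates (Xist added after seeing the data), a replicate block and each array left out.

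Same-numbered arrays were checked for pairing by correlating their deviations from group means. At P0.5 only parietal and occipital WT arrays had all 4 pairs over 0.1 (0.161 to 0.256), on the replicate numbers of the titles, and with the number as a block no member call changed.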

Additional observations from a re-analysis of the deposited data

Results flagged for a closer look

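In 36 groups of 4 arrays (6 genes in the 6 P0.5 groups) the gap of the highest or lowest array to its nearest neighbour was set against the group's range, with 0.829 as the limit, which chance passes in about 1 of 20 groups. It was passed by 2. Fbrsl1 on parietal KO replicate 3 stood at 9.20, above the other 3 arrays at 9.02 to 9.04, with a gap of 0.890 of the range. Galnt17 on frontal WT replicate 4 stood at 8.22, below the other 3 at 8.56 to 8.60, with a gap of 0.912 of the range. The cause was not tested.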

How the results depend on the processing

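Over the 13 member probe sets, 949 of 1008 alternative values kept their direction and side of the threshold, 2 lost a call, 3 gained one and 54 changed sign, all 54 among uncalled differences. Settings that change only the probe sets tested or the intensity trend leave the log2 difference of a probe set as it was. Its direction could not turn in these, so the count of kept values is in part fixed beforehand. The frontal fall of Auts2 stayed called under every setting run at an adjusted p under 0.05 alone (limma adjusted p from 1.01e-05 to 0.0382). It lay between -0.63 and -0.51 with each array left out. Among these settings, the sex-linked covariates cannot part genotype from the sex-linked level within frontal tissue, since their slope is set by the other regions. Over the regions Auts2 ran from -0.31 to -0.27 with 1 number left out, all called, and lost its call with the Y-linked mean (-0.32, adjusted p = 0.385) or Xist (-0.34, adjusted p = 0.183) as a covariate. With at least a 1.5-fold difference asked for, 0 members were called in frontal tissue and 0 over the regions, in place of 1 each. The frontal minus occipital interaction of Auts2 was called after quantile normalization again (-0.52) and with array weights (-0.46), and Fbrsl1 frontal minus occipital within KO with array weights (-0.20).

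Signs turned as follows, in values not called as reported except that of Galnt17 over the regions. With array weights 1457139_at was 0.12, 1425276_at -0.12, 1451645_at -0.036, Fbrs frontal minus parietal within WT 0.0050 and its parietal minus occipital interaction -0.028. With the Y-linked mean 1457139_at was 0.15, 1438680_at 0.017, Fbrsl1 0.031 in frontal and 0.0047 in parietal tissue and 0.027 in the frontal minus parietal interaction, Galnt17 0.0038 over the regions and Prex1 0.0089 in occipital tissue. With Xist 1457139_at was 0.034, Fbrsl1 0.048 in frontal and 0.014 in parietal tissue and 0.035 in that interaction, and in occipital tissue Galnt17 was 0.015 and Prex1 0.056. After quantile normalization again Fbrsl1 was -0.0063 over the regions and 0.0016 for frontal minus occipital within WT, and Fbrs 0.0031 for frontal minus parietal within WT. With array medians subtracted the frontal minus parietal interaction of Fbrsl1 was 0.0068.

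With each array left out, 1427293_a_at ran from -0.045 to 0.21, 1457139_at from -0.17 to 0.099, 1428403_at from -0.15 to 0.29, 1458511_at from -0.055 to 0.013, 1425276_at from -0.051 to 0.38 and 1451645_at from -0.043 to 0.19. The parietal minus occipital interaction ran from -0.089 to 0.082 for Auts2 and from -0.049 to 0.062 for Fbrs. Fbrsl1 ran from -0.0036 to 0.036 over the regions, from -0.047 to 0.0078 in frontal and from -0.053 to 0.0058 in parietal tissue, from -0.030 to 0.038 for parietal minus occipital within WT and from -0.036 to 0.030 for the frontal minus parietal interaction. Fbrs ran from -0.014 to 0.081 in frontal tissue and, within WT, from -0.036 to 0.075 for frontal minus occipital, from -0.070 to 0.026 for frontal minus parietal and from -0.0047 to 0.11 for parietal minus occipital. In occipital tissue Prex1 ran from -0.084 to 0.014 and Galnt17 from -0.27 to 0.053.

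Counts of called probe sets moved by over 1.5 times in several settings. In frontal tissue 1588 became 2816 with array weights, 287 with the Y-linked mean, 264 with Xist and 729 with only the arrays compared, and 801 to 2536 with each array left out. Over the regions 1614 became 78 with the Y-linked mean and 250 with Xist. With array weights parietal and occipital calls went to 1412 and 712 in place of 447 and 293, and those of the frontal minus occipital interaction to 562 in place of 75.

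At E14.5 same-numbered KO and WT arrays correlated at 0.068 to 0.414 in their deviations, with 2 of 3 pairs over 0.1 and each array best with its own number, a hint from the data and not the design. With the replicate block 0 probe sets were called there, and 1443062_at had an adjusted p of 0.641 in limma. At P0.5 the block left the frontal difference in Auts2 at -0.55 (limma adjusted p = 9.00e-04). No member call changed with the block.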
